A study of Mus musculus with 18 samples.

Results

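The transcripts described here are those of the mouse E2F transcription factor genes E2f1 to E2f8 and of Rbl1 and Rbl2, which encode the pocket proteins p107 and p130. They were found by symbol through the Ensembl gene IDs of the count table. The 10 genes are 10 of 55450 gene IDs in the table, and all 10 were among the 17912 genes that passed a filter on low counts and were tested. Their counts ran from 148 to 15965 per library, far above the 3 counts that a count of 0 allows.

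Polyadenylated RNA was sequenced from C2C12 cells, an established line of mouse muscle precursors whose myoblasts fuse into multinucleate myotubes when growth factors are withdrawn. There were 18 libraries in 6 groups of 3: a control line, a line labelled Dlk1-Dio3 overexpressor and a line labelled Dlk1-Dio3 knockout, at both the myoblast stage and, after 3 days of differentiation, the myotube stage. The control was a sorted population that had received the pX458 vector, which carries Cas9 and EGFP, without guides. The overexpressor and the knockout were clones, each grown out after CRISPR-Cas9 editing with a pair of guides against the Meg3 promoter, and EGFP-positive sorting was common to all lines. With 1 clone for each genotype and a population as control, genotype and clone cannot be told apart. The labels do not say whether replicates A, B and C were separate cultures, so p-values measure the spread between these libraries, which may be technical.

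Library totals ran from 41544358 to 79140702 counts. Meg3, the gene next to the edited region, had 0 counts in every control and knockout library and 5222 to 7763 in the overexpressor libraries, so it separated the overexpressor but not the knockout from the control. The summed level of 5 myotube markers was 232 to 355 CPM (counts relative to the TMM-scaled library total) in control myoblasts, 405 to 670 in overexpressor myoblasts, and 8610 to 11000 in knockout myoblasts. It was 12600 to 13100 CPM in control, 18100 to 20100 in overexpressor and 27100 to 32400 in knockout myotubes. The 4 myoblast markers, all above the floor in every group, summed to 1120 to 1250 CPM in control, 2250 to 2700 in overexpressor and 3010 to 3470 in knockout myoblasts, and to 2270 to 2370, 5180 to 6300 and 7360 to 9870 CPM in the myotubes of the same lines. In each line that sum was higher in myotubes than in myoblasts, so it is no measure of remaining myoblasts. Markers of osteoblasts, endothelium, leukocytes and epithelium summed to at most 2.3 CPM in any library, with Epcam at 0 in all, while adipocyte markers summed to 3.74 to 19.7 CPM and fibroblast-like or matrix markers to 15.3 to 83.2 CPM; the part of all these markers in the results was not tested. Between replicates of a group, the chi-square per degree of freedom over genes was 4.72 to 118, with no sign of duplicated libraries. Replicate C of the overexpressor myotubes stood apart (112 and 118 against its partners, which differed from each other by 22.8), as did replicate B of the overexpressor myoblasts (33 and 37.3 against 8.46). Knockout myotube replicates A and C differed by 55, and the other pairs of that group by 21 and 24. Replicate C of the control myotubes was at 21.2 and 25.9, against 11.4 between its partners.

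E2F proteins bind promoters of genes for DNA synthesis and mitosis, mostly as heterodimers with a DP subunit. E2F1, E2F2 and E2F3 are counted as activators and are held in check by pRB. E2F4 and E2F5 recruit p107 or p130 and act mainly as repressors, in quiescent and differentiating cells as part of the DREAM complex. E2F6 represses without a pocket protein, and E2F7 and E2F8, which lack the DP partner and bind DNA through tandem domains, repress E2F targets late in the cell cycle. In skeletal muscle, withdrawal from the cell cycle by the pocket protein pathway accompanies fusion into myotubes.

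Several of these genes are textbook targets of E2F themselves, so the promoters that carry a consensus E2F word are shown first. RefSeq windows on GRCm38.p6, from 250 bases before to 50 bases after a start, matched 8 of the 10 genes (all but E2f4 and E2f5). They were searched on both strands for TTTGGCGC, TTTGCCGC, TTTCGCGC and TTTCCCGC. Of the 8 genes, 4 held a match, against 2.6% of 27025 genes with a window and 16 of the 32 E2F target genes that had one. These were E2f2, E2f3, E2f7 and Rbl1, printed 5′ to 3′ on the gene's strand with the match in capitals, so that the rising gene E2f2 can be set beside the falling genes E2f3, E2f7 and Rbl1. The word begins at position 40 from the start in the first of 2 windows of E2f2, at -11 in the second of 2 windows of E2f3, at -198 in E2f7 and at -18 in Rbl1. In E2f3 and E2f7 the capitals read GCGGGAAA, since the match TTTCCCGC lies on the other strand. A match is a description of letters, not of binding, and a window without one says only that these letters are not in it. The only E2f1 window, chr2:154569377-154569676 on the minus strand, lies inside the gene as annotated, which reaches 154569892. The bases before the annotated start of E2f1 were therefore not searched.
E2f2, chr4:136172024-136172323, plus strand: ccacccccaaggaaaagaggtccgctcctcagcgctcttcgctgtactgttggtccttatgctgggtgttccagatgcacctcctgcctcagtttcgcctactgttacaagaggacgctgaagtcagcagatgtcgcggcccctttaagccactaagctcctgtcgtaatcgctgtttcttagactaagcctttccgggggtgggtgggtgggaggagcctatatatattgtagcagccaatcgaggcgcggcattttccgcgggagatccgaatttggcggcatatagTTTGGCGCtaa
E2f3, chr13:29986014-29986313, minus strand: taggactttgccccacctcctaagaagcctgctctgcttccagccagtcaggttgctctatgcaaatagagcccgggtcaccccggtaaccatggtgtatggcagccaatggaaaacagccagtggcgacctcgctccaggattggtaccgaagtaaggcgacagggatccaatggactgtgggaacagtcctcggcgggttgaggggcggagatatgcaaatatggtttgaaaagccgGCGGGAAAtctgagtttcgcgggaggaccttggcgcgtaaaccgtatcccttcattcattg
E2f7, chr10:110745189-110745488, plus strand: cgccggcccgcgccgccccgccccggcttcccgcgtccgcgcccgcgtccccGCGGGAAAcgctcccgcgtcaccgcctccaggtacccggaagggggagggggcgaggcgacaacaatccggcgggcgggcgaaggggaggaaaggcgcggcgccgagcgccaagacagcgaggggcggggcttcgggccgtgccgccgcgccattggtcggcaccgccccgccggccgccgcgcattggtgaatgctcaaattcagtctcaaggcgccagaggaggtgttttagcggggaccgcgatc
Rbl1, chr2:157204485-157204784, minus strand: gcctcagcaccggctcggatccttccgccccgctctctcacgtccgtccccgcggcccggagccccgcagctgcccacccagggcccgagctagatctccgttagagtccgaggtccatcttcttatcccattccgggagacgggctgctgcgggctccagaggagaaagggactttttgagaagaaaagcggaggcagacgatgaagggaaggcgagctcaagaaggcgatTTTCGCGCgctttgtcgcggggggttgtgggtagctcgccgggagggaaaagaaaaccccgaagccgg

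The CHR word bound by the DREAM complex (TTTGAA or TTCGAA) was found in windows of 4 of the 8 genes, E2f2, E2f3, E2f8 and Rbl2, against 21.7% of all genes with a window. For E2f2 the match is in the second window, which starts at 136180532, inside the gene as annotated from 136172394. CCAAT, the word of the NF-Y factor, was found in E2f2, E2f3, E2f7 and E2f8, or 4 of 8 against 41.1%. No match overlapped another.

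Levels of different genes were compared only per length, as RPKM (CPM divided by the kilobases of merged exons). In control myoblasts E2f4 was the most abundant of the 10 transcripts at 24.5 ± 0.556 RPKM (SD, n = 3), followed by E2f1 at 19.7 ± 1.06, E2f8 at 15.6 ± 0.35 and Rbl2 at 11.6 ± 0.147. E2f5, E2f3, E2f2, E2f7 and Rbl1 followed between 10.9 and 8.16 RPKM, where E2f2 and E2f7, and E2f7 and Rbl1, lay closer than the sum of their SDs. In control myotubes the order was different: E2f2 led at 35.1 ± 1.56 RPKM, E2f4 was at 28.7 ± 0.838 and Rbl2 at 10.3 ± 0.697, while Rbl1 was at 1.6 ± 0.176 and E2f7 was lowest at 0.399 ± 0.0953. Between them E2f8, E2f1, E2f3, E2f6 and E2f5 lay from 7.42 down to 4.44 RPKM, with E2f8 and E2f1, and E2f3 and E2f6, closer than the sum of their SDs. E2f4 was also the most abundant in overexpressor myoblasts (30 ± 2.93 RPKM), knockout myoblasts (37.0 ± 1.1) and overexpressor myotubes (42.5 ± 3.4), and E2f2 in knockout myotubes (55.0 ± 5.23). With the length of the longest transcript the leading gene of every group was the same, but ranks in the middle moved, E2f2 instead of E2f6 was lowest in control myoblasts, and the lead of E2f2 over E2f4 in control myotubes narrowed to 36.1 ± 1.61 against 35.3 ± 1.03 RPKM and in knockout myotubes to 56.7 ± 5.39 against 55.2 ± 1.54 RPKM, both closer than the sum of their SDs.

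**Figure D1:**
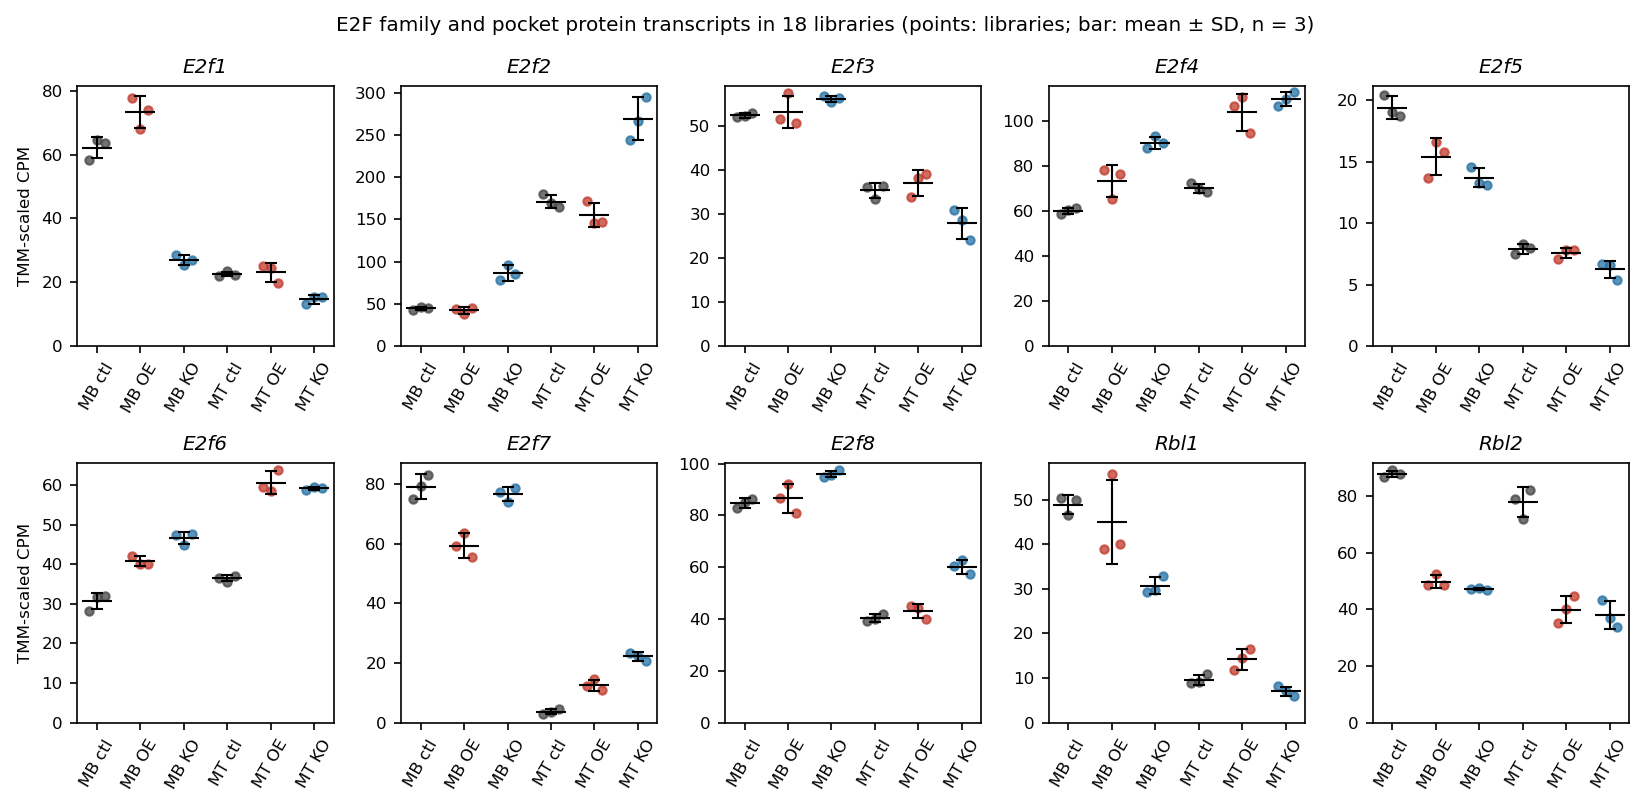
Level of each gene (y axis, TMM-scaled CPM from 0) in the 6 groups (MB myoblast, MT myotube, ctl control, OE overexpressor, KO knockout). Points are libraries and bars are mean ± SD, n = 3. E2f2 is higher in myotubes than in myoblasts of the same line, E2f7 and Rbl1 are far lower, and Rbl2 is lower in both clones than in the control at both stages.

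Differentiation changed nearly the whole family. Between myoblasts and myotubes, 9 of the 10 genes passed the test in the control (62.8% of all genes tested did), 10 in the overexpressor (62.8%) and 10 in the knockout (65.4%). The threshold was an adjusted p of 0.05 in edgeR's quasi-likelihood test with Benjamini-Hochberg adjustment over the 17912 genes, the test behind every adjusted p here. In each line 3 genes were higher in myotubes, E2f2, E2f4 and E2f6, and the others that passed were lower. For E2f4 and E2f6 in the control this depends on the scaling: with library totals alone the log2 change of E2f4 turned to -0.0176 and that of E2f6 was 0.0074, neither of them passing, and E2f4 in the knockout was 0.11 and did not pass. In bulk RNA, fewer cells that express a gene and less RNA of it per cell cannot be told apart.

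Among the activators, E2f2 went against E2f1 and E2f3. E2f2 was at 42.2, 46.5 and 44.9 CPM in control myoblasts and 180.0, 169 and 165 CPM in control myotubes, 3.84-fold higher (log2 change 1.94, SE 0.1, adjusted p = 3.32e-12). It was 3.67-fold higher in overexpressor myotubes (log2 1.88) and 3.1-fold higher in knockout myotubes (log2 1.63) than in myoblasts of the same line. No myotube library overlapped the myoblasts of its line. E2f1 moved the other way, from 58.4, 64.5 and 63.8 CPM to 22.0, 23.4 and 22.4 CPM in the control (log2 change -1.46, SE 0.09, adjusted p = 1.23e-10). Its log2 change was -1.67 in the overexpressor and -0.89 in the knockout, both passing. E2f3 fell by less, from a mean of 52.5 to 35.4 CPM in the control (log2 -0.57), with -0.52 in the overexpressor and -1.01 in the knockout.

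The knockout line differed from the control in its activators at the myoblast stage. Knockout myoblasts held E2f1 at 28.5, 25.4 and 27.0 CPM, 2.31-fold below the control (log2 change -1.21, SE 0.09, adjusted p = 3.3e-09). E2f2 was at 77.9, 96.5 and 85.8 CPM there, 1.95-fold above the control (log2 0.96, SE 0.09, adjusted p = 8.3e-08). Both shifts have the direction of differentiation, and the same knockout myoblasts carried the myotube marker sum of 8610 to 11000 CPM given above; the part of that in these changes was not tested. In myotubes E2f1 was at 13.1, 15.3 and 15.5 CPM in the knockout against 22.0 to 23.4 in the control (log2 -0.63, adjusted p = 1.03e-05), and E2f2 was at 244, 267 and 295 CPM against 165 to 180.0 (log2 0.65, adjusted p = 5.68e-06). E2f3 was 0.1 apart in knockout myoblasts on the log2 scale, without passing (adjusted p = 0.335), and lower in knockout myotubes (log2 -0.34, adjusted p = 0.00158). The 56 tested genes within 5 Mb of E2f3 had a median log2 change of -0.39 in knockout myoblasts and -0.28 in knockout myotubes. All tested genes of its chromosome 13 had medians of -0.19 and -0.57. The part of these shifts in the E2f3 result was not tested.

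In the overexpressor the activators lay near the control. E2f2 and E2f3 did not pass in either stage, with log2 changes between -0.14 and 0.07. E2f1 was at 77.9, 68.0 and 73.9 CPM in overexpressor myoblasts against 58.4 to 64.5 in the control, a log2 change of 0.24 with an adjusted p of 0.0439. That call was lost in 10 of 12 alternative analyses, where the adjusted p reached 0.17. In overexpressor myotubes the E2f1 libraries were at 25.1, 24.4 and 19.8 CPM and overlapped the control (log2 0.03, adjusted p = 0.777). Without replicate C, the library that stood apart, the log2 change was 0.24 with an adjusted p of 0.0328.

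Per length, E2f2 supplied 23.7% ± 0.326 (SD, n = 3) of the summed activator transcripts in control myoblasts and 71.9% ± 1.01 in control myotubes. The overexpressor was similar, at 20.7% ± 1.28 and 69.1% ± 2.16. In the knockout the share was already 48.3% ± 3.48 in myoblasts, where libraries ran from 45.0% to 51.9%, and it was 84.8% ± 1.58 in myotubes. The knockout libraries lay above those of both other lines in each stage.

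Against the control, E2f4 was higher in both clones at both stages, and E2f5 was lower in both clones in myoblasts and in the knockout in myotubes. E2f4 was at 58.6, 60.6 and 61.3 CPM in control myoblasts, 78.5, 65.3 and 76.7 in the overexpressor and 88.1, 93.5 and 90.2 in the knockout. The clones were higher than the control by a log2 change of 0.29 (adjusted p = 0.00298) and 0.59 (adjusted p = 1.26e-06). In myotubes the E2f4 libraries were at 72.5, 70.1 and 68.4 CPM in the control, 94.7 to 111 in the overexpressor (mean 104 ± 8.33; log2 0.57, adjusted p = 1.67e-06) and up to 113 in the knockout (mean 110.0 ± 3.06; log2 0.65, adjusted p = 2.7e-07). No library of either clone overlapped the control. E2f5, per length the less abundant of the pair, fell on differentiation from a mean of 19.4 to 7.92 CPM in the control (log2 -1.29), with -1.02 in the overexpressor and -1.13 in the knockout. Its level in myoblasts was lower in the overexpressor (15.4 ± 1.5 CPM, log2 -0.33, adjusted p = 0.00983) and in the knockout (13.7 ± 0.793 CPM, log2 -0.51, adjusted p = 0.000247). Leaving out overexpressor replicate A raised the first p to 0.0642. In overexpressor myotubes E2f5 did not pass and its libraries overlapped the control (log2 -0.07, adjusted p = 0.599). In myotubes E2f5 was lower in the knockout (log2 -0.34, adjusted p = 0.00599), a call that was lost with DESeq2 size factors (log2 -0.21, adjusted p = 0.0647). The 24 tested genes within 5 Mb of E2f5 had a median log2 change of -0.28 in knockout myotubes, whose part in this result was not tested. In overexpressor and knockout myoblasts their medians were 0.29 and 0.25.

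E2f4 lies on chromosome 8, with 111 tested genes within 5 Mb of it. The median log2 change of those genes was 0.29 and 0.26 in overexpressor and knockout myoblasts and 0.21 and 0.39 in the myotubes, against 0.08, 0.07, -0.05 and -0.02 for all tested genes of the chromosome. The part of this regional shift in the E2f4 result was not tested.

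E2f6, the repressor that works without a pocket protein, followed E2f4. It was at 28.2, 31.7 and 31.9 CPM in control myoblasts, 42.1, 40.1 and 40.1 in the overexpressor (log2 0.41, SE 0.06, adjusted p = 2.34e-05) and 47.3, 44.8 and 47.7 in the knockout (log2 0.61, adjusted p = 1.47e-07). Myotubes showed 36.6, 35.5 and 37.0 CPM in the control, 59.5, 58.4 and 63.9 in the overexpressor (log2 0.74, adjusted p = 8.07e-09) and 58.8, 59.4 and 59.3 in the knockout (log2 0.7, adjusted p = 1.31e-08). Every library of both clones was above every control library of its stage. Among the 10 genes, E2f6 was the one whose pattern lay nearest to that of E2f4, with a root mean square difference of 0.111 between their centred log2 levels over the 18 libraries. Its own 50 neighbours within 5 Mb had median changes of 0.09, -0.15, 0.11 and -0.32 in the same 4 comparisons.

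Within the activators and canonical repressors, summed per length, the activators stood at 1.09 ± 0.0429 times the repressors in control myoblasts and 1.08 ± 0.0327 in the overexpressor. Knockout myoblasts had a lower ratio, 0.822 ± 0.0161, with no library overlapping the other lines. In myotubes the ratio was 1.47 ± 0.0233 for control, 0.985 ± 0.0705 for overexpressor and 1.34 ± 0.0785 for knockout libraries. The overexpressor myotubes, at 0.905 to 1.04, were thus the lowest of the myotube groups. Their E2f4 was at 42.5 RPKM against 28.7 in control myotubes, and E2f5 at 4.24 against 4.44. Among their activators E2f2 was at 31.8 RPKM against 35.1, E2f1 at 7.32 against 7.15 and E2f3 at 6.83 against 6.51. In knockout myoblasts E2f4 was at 37.0 RPKM against 24.5 in control myoblasts, and E2f5 at 7.66 against 10.9. E2f1 was at 8.56 RPKM there against 19.7, E2f2 at 17.8 against 9.13 and E2f3 at 10.4 against 9.67. On differentiation the ratio sums activators that moved in opposite directions. In the control E2f2 rose from 9.13 RPKM in myoblasts to 35.1 in myotubes. E2f1 fell from 19.7 to 7.15 RPKM and E2f3 from 9.67 to 6.51.

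**Figure D2:**
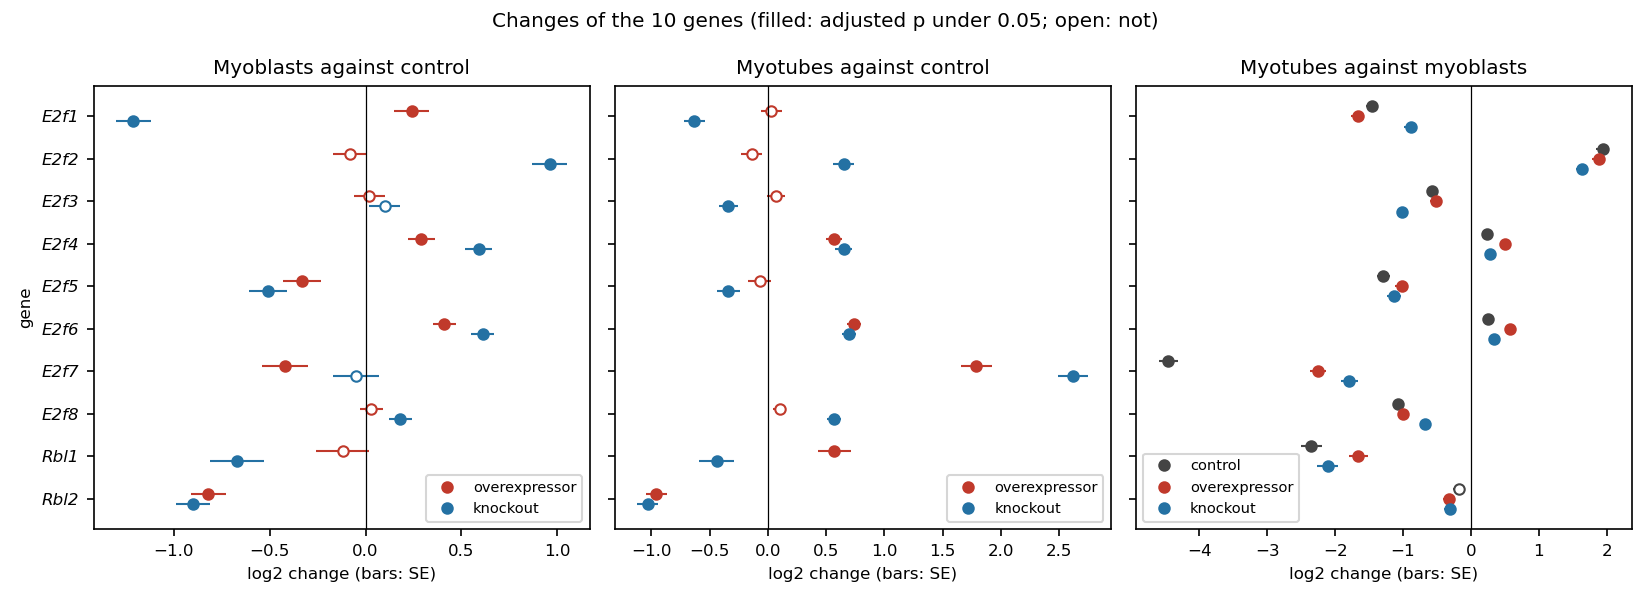
Log2 change (x axis, with SE as bars) of each gene (y axis) between each clone and the control in myoblasts and in myotubes, and between myotubes and myoblasts of each line. Filled points passed an adjusted p of 0.05. E2f7 is lower in control myotubes by 4.46 on the log2 scale, and Rbl2 is lower in both clones at both stages; the small rise of E2f4 in control myotubes turns to -0.0176 with library totals.

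On differentiation the steepest change of the 10 genes in the knockout was that of Rbl1 (log2 -2.11). In the control and the overexpressor the atypical repressor E2f7 had the steepest change. Control myoblasts held it at 75, 79.5 and 83.1 CPM and control myotubes at 2.8, 3.48 and 4.51 CPM, a 22.0-fold fall (log2 change -4.46, SE 0.14, adjusted p = 1.04e-14). The overexpressor went from 59.1, 63.6 and 55.5 CPM to 12.1, 14.5 and 10.8 CPM (log2 -2.25, SE 0.12). In the knockout it went from 77.2, 74.1 and 78.6 CPM to 23.4, 22.4 and 20.6 CPM (log2 -1.79, SE 0.12). The 3 groups of myotubes did not overlap: the control was lowest, the overexpressor between, and the knockout highest.

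Against control myotubes, E2f7 was 3.46-fold higher in overexpressor myotubes (log2 1.79, SE 0.13, adjusted p = 1.75e-09) and 6.15-fold higher in knockout myotubes (log2 2.62, SE 0.13, adjusted p = 9.28e-12). In myoblasts the overexpressor was lower than the control (log2 -0.42, adjusted p = 0.00839) and the knockout did not pass (log2 -0.05, adjusted p = 0.763). The difference between the responses to differentiation was itself tested: it was 2.21 (SE 0.18, adjusted p = 1.55e-08) for the overexpressor against the control and 2.67 (SE 0.18, adjusted p = 1.15e-09) for the knockout against the control. Of all genes tested, 39.0% and 50.1% passed these tests. The 39 neighbours of E2f7 within 5 Mb had a median log2 change of -0.14 in both clones in myotubes.

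E2f8, the other atypical repressor, changed less. It fell from 84.8 ± 1.9 to 40.4 ± 1.43 CPM in the control (log2 -1.07, adjusted p = 4.89e-11), by 1.0 in the overexpressor and by 0.67 in the knockout on the log2 scale. In knockout myotubes it was at 60.4, 62.6 and 57.4 CPM, above the 39.2 to 42.0 of the control (log2 0.57, adjusted p = 2.65e-07). Its 125 neighbours within 5 Mb had a median of 0.27 there. In knockout myoblasts the libraries were at 95, 95.5 and 97.5 CPM against 82.8 to 86.5 (log2 0.18, adjusted p = 0.0221), a call lost under 8 of the alternatives. Overexpressor E2f8 did not pass in either stage, with log2 changes of 0.03 and 0.1. The second passed with other scalings, at 0.21 (adjusted p = 0.0182) with DESeq2 size factors and 0.24 (adjusted p = 0.00536) with library totals, at 0.21 (adjusted p = 0.0142) in DESeq2's Wald test, and at 0.25 (adjusted p = 0.00383) without overexpressor myotube replicate C. Per length, E2f7 stood at 0.564 ± 0.0162 times E2f8 in control myoblasts and 0.0536 ± 0.0109 times in control myotubes, against 0.174 ± 0.02 in overexpressor and 0.223 ± 0.01 in knockout myotubes.

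**Figure D3:**
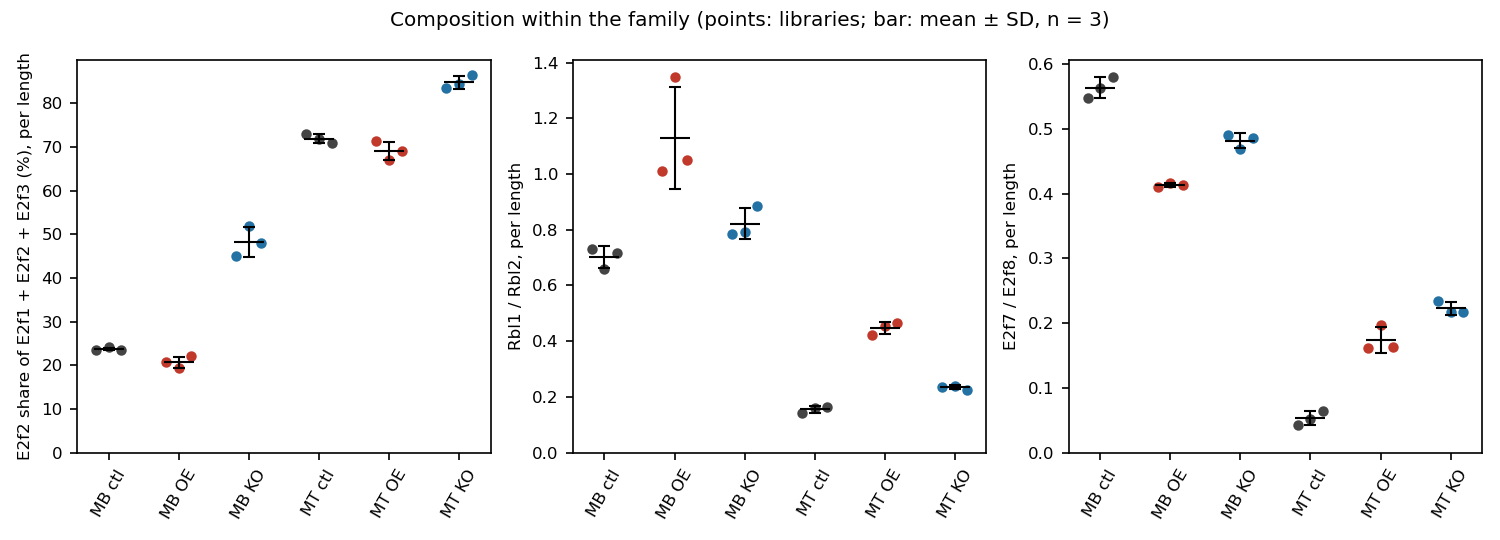
Ratios within the family, per length (y axes), in the 6 groups: the share of E2f2 among the activators, Rbl1 over Rbl2, and E2f7 over E2f8. Points are libraries and bars are mean ± SD, n = 3. The E2f2 share is 48.3% in knockout myoblasts against 23.7% in the control, and both pocket protein and E2f7 ratios are lowest in control myotubes.

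The pocket proteins separated on differentiation. Rbl1, which encodes p107, the pocket protein of cycling cells, was at 50.4, 46.5 and 49.9 CPM in control myoblasts and 8.85, 9.09 and 10.8 CPM in control myotubes, 5.11-fold lower (log2 change -2.35, SE 0.15, adjusted p = 1.24e-10). It fell by 1.66 in the overexpressor and by 2.11 in the knockout on the log2 scale. Rbl2, which encodes p130, the pocket protein of quiescent cells, was at 86.9, 89.1 and 87.7 CPM in control myoblasts and 79.1, 72.0 and 82.3 CPM in control myotubes. That change did not pass (log2 -0.18, SE 0.09, adjusted p = 0.0927), though with library totals it was -0.42 (adjusted p = 0.00094). In the clones Rbl2 was lower in myotubes, by a log2 change of -0.32 in the overexpressor and -0.31 in the knockout, the latter lost with DESeq2 size factors (adjusted p = 0.0555).

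Rbl2 was the member that both clones lowered at both stages. In overexpressor myoblasts it was at 48.5, 52.4 and 48.5 CPM, 1.76-fold below the control (log2 -0.82, SE 0.09, adjusted p = 6.13e-07), and in knockout myoblasts at 47.1, 47.4 and 46.8 CPM, 1.87-fold below (log2 -0.9, adjusted p = 1.18e-07). Overexpressor myotubes were at 35, 40.2 and 44.6 CPM (log2 -0.96, adjusted p = 3.79e-08) and knockout myotubes at 43.2, 37.1 and 33.8 CPM (log2 -1.03, adjusted p = 1.3e-08). No clone library overlapped the control. The clones did not differ from each other beyond the test, with log2 differences of -0.08 (SE 0.09) in myoblasts and -0.07 (SE 0.09) in myotubes. The comparisons with the control share its libraries.

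The genes around Rbl2 on chromosome 8 were lower as well. Among the 90 tested genes within 5 Mb of Rbl2, a window chosen after its values were seen, the median log2 change was -0.67 and -0.57 in overexpressor and knockout myoblasts and -0.69 and -0.66 in the myotubes. Between 55 and 58 of the 90 passed as lower and 4 to 20 as higher. In 5 Mb bins the medians were -0.88, -0.94, -0.85 and -0.85 in the bin from 10 to 5 Mb before the gene, and 0.32, 0.26, 0.24 and 0.4 in the bin from 10 to 15 Mb after it, where E2f4 lies. The part of this regional shift in the Rbl2 result was not tested. Exons of Rbl2 also overlap those of Aktip on the opposite strand over 693 bp, and it is not stated whether counting used strand. Aktip was at 54.0, 51.8 and 38.7 CPM in control, overexpressor and knockout myoblasts and at 71.0, 62.6 and 46.7 CPM in the myotubes.

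**Figure D4:**
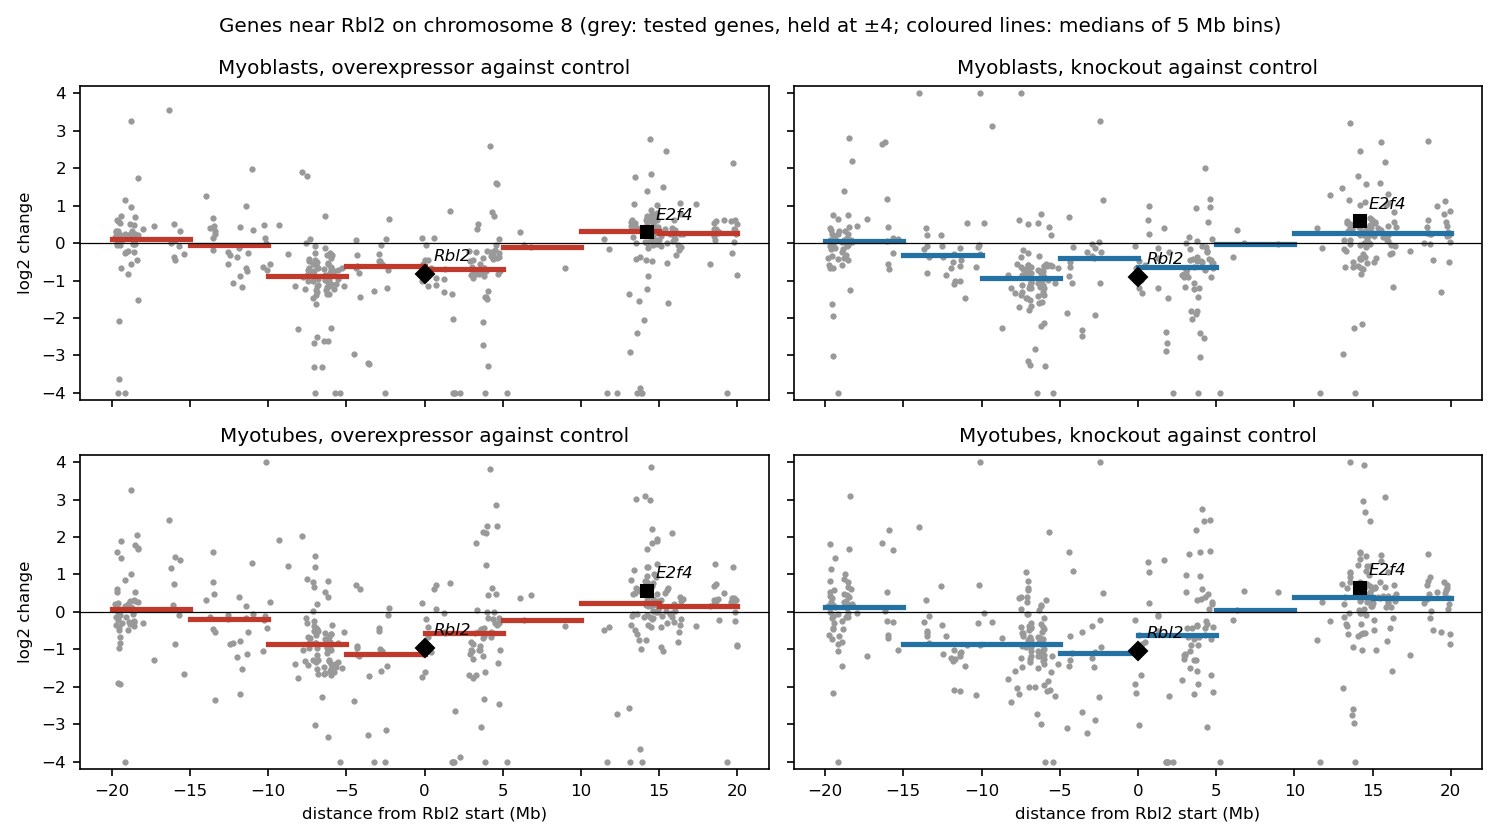
Log2 change against control (y axis, values held at ±4) of tested genes by distance from the start of Rbl2 (x axis, Mb) in the 4 comparisons of a clone with the control. Coloured lines are medians of 5 Mb bins. Rbl2 lies within a stretch whose bin medians are -0.4 to -1.12 from 10 Mb before to 5 Mb after it, and E2f4 in one whose medians are 0.24 to 0.4. From 15 to 10 Mb before Rbl2 the medians are -0.32 and -0.86 in knockout myoblasts and myotubes. In the overexpressor they are -0.06 and -0.2 there.

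Rbl1 differed between the clones. In knockout myoblasts it was at 29.4, 29.8 and 32.9 CPM, 1.59-fold below the control (log2 -0.67, SE 0.14, adjusted p = 0.000494). Overexpressor myoblasts were at 39.0, 55.9 and 40.2 CPM and overlapped the control (log2 -0.12, adjusted p = 0.538), replicate B being the library that stood apart. Overexpressor myotubes were higher, at 11.7, 14.4 and 16.4 CPM (log2 0.57, SE 0.14, adjusted p = 0.00237). Knockout myotubes were lower, at 8.09, 7.06 and 6.06 CPM (log2 -0.44, SE 0.15, adjusted p = 0.0144), a call lost with DESeq2 size factors (log2 -0.31, adjusted p = 0.0542) and without replicate C of either group. The direct difference between the clones in myotubes was -1.0 (SE 0.15, adjusted p = 1.48e-05). Rbl1 and E2f1 lie near each other on chromosome 2, and the 125 and 147 tested genes within 5 Mb of them had a median of -0.32 in knockout myoblasts, and of -0.34 and -0.32 in knockout myotubes, whose part in these results was not tested.

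Relative to Rbl2 and per length, Rbl1 stood at 0.702 ± 0.0389 in control myoblasts and 0.155 ± 0.0127 in control myotubes. The overexpressor ratios were higher, 1.13 ± 0.184 and 0.447 ± 0.0215. In the knockout they were 0.822 ± 0.0555 and 0.234 ± 0.00713. In both stages the control libraries had the lowest ratios, and no library of a clone overlapped them. In the knockout Rbl1 itself was below the control in myoblasts and myotubes (log2 -0.67 and -0.44), and Rbl2 further below (log2 -0.9 and -1.03). In the overexpressor the changes were -0.12, not passing, and 0.57 for Rbl1, and -0.82 and -0.96 for Rbl2.

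Counted over the family, 6 of the 10 genes passed between overexpressor and control myoblasts (40.4% of all genes did), 3 higher and 3 lower, and 8 between knockout and control myoblasts (53.0%), 4 in each direction. In myotubes 5 passed for the overexpressor (57.1%), 4 of them higher, and 10 for the knockout (68.0%), 5 in each direction. Between the clones, 6 passed in myoblasts (52.6%) and 7 in myotubes (59.7%). Without overexpressor myotube replicate C, 7 rather than 5 passed against control myotubes. The members' counts are to be read against these shares of all genes, and no test was made over the family as a list.

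The response to differentiation differed from that of the control for 4 genes in each clone (39.0% and 50.1% of all genes). In the overexpressor these were E2f4, E2f6, E2f7 and Rbl1, all with a higher, that is more positive, response (16.6% of all genes passed as higher). E2f4 and E2f6 rose more than in the control, while E2f7 and Rbl1 fell less. In the knockout they were E2f1, E2f7 and E2f8 with a higher response, a smaller fall than in the control, and E2f3 with a lower one, a larger fall. Between the clones, 5 genes differed (46.7%): E2f1, E2f7 and E2f8 were higher in the knockout and E2f3 and E2f6 lower. That balance depends on the scaling: with library totals 1 gene passed as higher and 5 as lower, E2f7 (0.35, adjusted p = 0.125) and E2f8 (0.22, adjusted p = 0.0733) no longer passing and E2f2 (-0.36), E2f4 (-0.34) and Rbl1 (-0.56) passing as lower.

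E2F works with DP subunits and, in the DREAM and MuvB complexes, with the LIN proteins, MYBL2 and FOXM1. Of 11 such genes, 7 were lower and 3 higher in control myotubes than in control myoblasts (62.8% of all genes passed). Their median log2 change was -0.78 against 0.07 over all genes. Tfdp1, which encodes the main DP subunit, fell from 131 ± 5.14 to 62.8 ± 2.18 CPM (log2 -1.06, adjusted p = 9.96e-11), and Tfdp2 from 40.2, 38.0 and 40.4 to a mean of 23.0 ± 2.3 CPM (log2 -0.78). Tfdp2 was also lower in myoblasts of both clones (23.3 ± 3.02 CPM in the overexpressor and 25.0 ± 2.15 in the knockout; log2 -0.77 and -0.66). Mybl2, which carries MuvB to mitotic promoters, went from 30.4 ± 1.87 to 1.62 ± 0.303 CPM in the control (log2 -4.22) and was at 4.49 ± 0.571 in overexpressor and 6.69 ± 0.708 CPM in knockout myotubes. Foxm1, the forkhead factor of the same complex, went from 194 ± 8.08 to 12 ± 1.81 CPM (log2 -4.02), and its myotube levels were 29.3 ± 3.75 and 29.6 ± 1.16 CPM in the clones. Of the 11 genes, 4 were higher and 2 lower in overexpressor myotubes (median log2 change 0.32, -0.037 over all genes) and 6 higher and 1 lower in knockout myotubes (median 0.24, -0.068 over all genes). These counts are near the 57.1% and 68.0% of all genes that passed.

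Rb1, the pocket protein partner of the activators, was at 43.0 ± 1.42 CPM in control myoblasts and at 128, 136 and 128 CPM in knockout myoblasts, 3.03-fold higher (log2 1.6, SE 0.2, adjusted p = 6.76e-06). In myotubes the knockout and the overexpressor did not pass against the control, and overexpressor replicate C was at 178 CPM against 100.0 and 101 in its partners.

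Nearly all of the listed genes that E2F controls fell in every line. Of 40 target genes, all tested, 40 were lower in control myotubes than in myoblasts, with a median log2 change of -3.02 (0.07 over all genes). In the overexpressor 39 were lower and 1 higher (median -1.91), and in the knockout 39 lower and 1 higher (median -1.63). The gene that rose was Cdk2, which encodes the kinase of cyclin E and A, with log2 changes of 0.43 and 0.42, against -0.79 in the control. The steepest falls in the control were those of Uhrf1, which maintains DNA methylation, from 198 ± 13.5 to 6.12 ± 1.54 CPM (log2 -5.02), and of Cdc6, a loader of the replicative helicase, from 37.3 ± 3.59 to 1.73 ± 0.281 CPM (log2 -4.44). The steepest in the overexpressor were Ccnb1 (log2 -3.04), the mitotic cyclin, and Mki67 (log2 -2.65), the proliferation marker. In the knockout they were Mki67 and Ccne2, both at -3.09.

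In myotubes 32 of the 40 targets were higher in the overexpressor than in the control and 3 lower, with a median of 0.93 (-0.037 over all genes). In the knockout 30 were higher and 5 lower, with a median of 0.9 (-0.068 over all genes). Of all genes, 57.1% passed for the overexpressor and 68.0% for the knockout, in either direction. Uhrf1 was at 28.1 ± 4.29 CPM in overexpressor and 36.0 ± 0.791 in knockout myotubes (log2 2.2 and 2.56), and Cdc6 at 5.99 ± 1.43 and 10.5 ± 0.627 (log2 1.8 and 2.6). Both were far below their myoblast levels. Dut, a nucleotide hydrolase, was lower in both clones (log2 -0.42 and -0.88), as was Pola1, the catalytic subunit of the primase polymerase, in the knockout (8.05 ± 1.57 CPM in the control, 2.3 ± 0.932 in the knockout; log2 -1.8). Cdc25a, a phosphatase that activates cyclin-dependent kinases, was lower in the overexpressor (log2 -0.42).

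In myoblasts the targets leaned the other way. Knockout myoblasts had 30 of 40 lower than the control and 2 higher (median -0.49, 0.019 over all genes, of which 53.0% passed). Overexpressor myoblasts had 15 lower and 1 higher (median -0.23, 0.015 over all genes, of which 40.4% passed). The number of targets that passed in the overexpressor is near that share of all genes. The lowest in the knockout were Pola1 (13.3 ± 1.09 against 30.9 ± 4.31 CPM, log2 -1.22) and Rfc3, a clamp loader subunit (33.3 ± 1.31 against 64.2 ± 1.17 CPM, log2 -0.95), and the 2 that rose were Cdk2 (log2 0.51) and Tyms, thymidylate synthase (log2 0.37). In the overexpressor the lowest were Cdc25a (log2 -0.82) and Msh6, a mismatch repair protein (log2 -0.66), and Rrm2, a ribonucleotide reductase subunit, rose (log2 0.39). The difference in response was positive and passed for 32 targets in the overexpressor and 34 in the knockout, with medians of 0.98 and 1.21, against -0.051 and -0.115 over all genes. Of all genes, 39.0% and 50.1% passed these tests in either direction, and 16.6% passed as higher in the overexpressor.

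**Figure D5:**
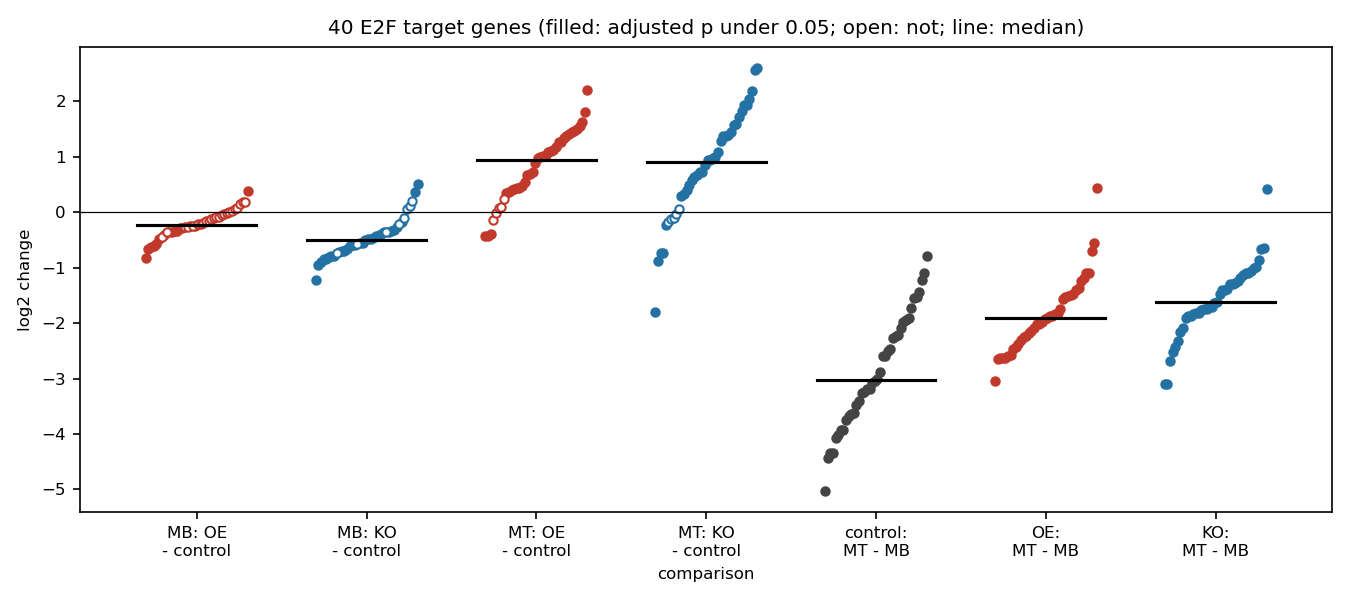
Log2 change (y axis) of the 40 E2F target genes in 7 comparisons (x axis), sorted within each. Filled points passed an adjusted p of 0.05, open points did not, and lines are medians. On differentiation 40 targets are lower in the control and 39 in each clone, where Cdk2 rises (medians -3.02, -1.91 and -1.63). Against control myotubes 32 are higher and 3 lower in the overexpressor and 30 higher and 5 lower in the knockout (medians 0.93 and 0.9). Of all genes, 62.8%, 62.8% and 65.4% passed on differentiation, and 57.1% and 68.0% against control myotubes.

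Upstream of the pocket proteins, 10 of 12 genes for D cyclins, their kinases and inhibitors were tested, and those named here were chosen after their values were seen. In control myotubes 3 were higher and 5 lower than in myoblasts (median log2 change -0.6, 0.07 over all genes, of which 62.8% passed). Cdkn1a, the p21 inhibitor, and Ccnd3, the D cyclin of muscle differentiation, were higher (log2 3.32 and 1.47), and Ccnd1, the D cyclin of growing myoblasts, was lower (log2 -2.38). Knockout myoblasts had 2 higher and 5 lower than control myoblasts (median -0.36, 0.019 over all genes, of which 53.0% passed), with Cdkn1a at a log2 change of 2.72 and Ccnd1 at -0.89. In overexpressor myoblasts 4 were higher and 2 lower (median 0.15, 0.015 over all genes, of which 40.4% passed), with Cdkn1a at 0.76 and Ccnd2, another D cyclin, at -2.33. In myotubes 3 were higher and 5 lower in the overexpressor (median -0.16, 57.1% of all genes passing) and 4 in each direction in the knockout (median 0.11, 68.0% of all genes passing).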

How the data were processed

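The deposited table held raw counts per Ensembl mouse gene for 18 libraries, made by the authors. Per the submitters' processing notes, the tools were STAR 2.7.9a, featureCounts, Subread 2.0.3, FastQC 0.11.7 and DESeq2 1.32.0 on the genome build mm10; annotation release and strandedness are not given in the sources used here. A second deposited table, of transformed values, was not used. Symbols and positions came from GENCODE M21 (GRCm38), which matched 55190 of 55450 IDs.

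Differences were tested on the counts with edgeR 4.0.16 (R 4.3.3): TMM factors (0.895 to 1.08), filterByExpr by group (17912 genes, holding at least 99.97% of the counts of each library), and the robust quasi-likelihood test with 1 coefficient for each of 6 groups, leaving 12 residual degrees of freedom. P-values were adjusted by Benjamini-Hochberg over all genes of each of 12 contrasts, with a threshold of 0.05. A response is the myotube minus myoblast change of a line. The procedure was tested on simulated data with few genes changed, in knockout myoblasts alone. With so few changed genes, that simulation could not test the choice of scaling. Levels are TMM-scaled CPM, and RPKM adds the merged exon length. The floor of 3 counts covers counting error alone, because PCR copies carry no molecular identifiers.

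Members and lists were chosen with earlier results of these data known. Named were all members, Rb1, Tfdp1, Tfdp2, Mybl2 and Foxm1, and target genes from the 2 highest and 2 lowest past the threshold in a contrast. The 3 genes most like each member were found, and all 3 are named for E2f4, E2f7 and Rbl2 and fewer for the others. Outside this rule, Aktip was named for its overlap with Rbl2, and the upstream genes given with values were chosen after these were seen. Alternatives were DESeq2 size factors, library totals, no filter, a replicate block, a fit of the compared groups alone, DESeq2 1.42.0 and leaving out each library; limma 3.58.1 was loaded with edgeR.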

Additional observations from a re-analysis of the deposited data

Results flagged for a closer look

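The responses to differentiation listed here passed a test of the difference between 2 lines itself (edgeR's quasi-likelihood test, adjusted over all genes). Each value is a difference of log2 changes. A higher response is a more positive change, so for a gene that fell it is a smaller fall. Against the control, the overexpressor had a higher response of E2f7 (2.21), Rbl1 (0.69, adjusted p = 0.0101), E2f6 (0.32, adjusted p = 0.00619) and E2f4 (0.28, adjusted p = 0.0349). For E2f7 this came from a fall of 4.46 in the control against 2.25 in the overexpressor, and all 3 overexpressor myotube libraries lay above all 3 control ones. The E2f4 difference did not pass in 9 of its alternatives.

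Against the control, the knockout had a higher response of E2f7 (2.67), E2f1 (0.58, adjusted p = 0.00127) and E2f8 (0.4, adjusted p = 0.00125), and a lower one of E2f3 (-0.44, adjusted p = 0.00491). The E2f1 value goes with a level in knockout myoblasts that was already 2.31-fold below the control.

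Between the clones, the knockout response was higher for E2f1 (0.78, adjusted p = 9.96e-05), E2f7 (0.46, adjusted p = 0.0328) and E2f8 (0.33, adjusted p = 0.00557), and lower for E2f3 (-0.49, adjusted p = 0.00267) and E2f6 (-0.23, adjusted p = 0.039). The E2f7 and E2f6 values did not pass in 11 and 13 of their alternatives, and E2f8 did not pass with library totals (0.22) or no filter (0.28).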

How the results depend on the processing

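Of the 120 member results (10 genes in 12 contrasts), 82 kept direction and side of the threshold under every alternative. Of the 84 that passed, 16 lost the call under some alternative and 1 turned; of the others, 11 gained a call under some alternative. The count of members between the responses of the clones was 5, and 2 with no filter, where more genes were tested; leaving out 1 library gave 3 to 5, and library totals 1 higher and 5 lower in place of 3 and 2. Every other count of members stayed within 1.5 times its value.

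The called result that turned was E2f4 in control differentiation, -0.0176 with library totals. The other turned values belong to results that had not passed. With library totals these were -0.0183 for E2f3 and -0.0092 for E2f8 (overexpressor against control myoblasts), 0.0063 for E2f2 and 0.0803 for E2f5 (overexpressor against control myotubes), -0.0221 for E2f4 (knockout against overexpressor myotubes), and, for responses, 0.12 for E2f2 and 0.0436 for Rbl2 (overexpressor against control) and -0.1 for Rbl2 (between clones). With DESeq2 size factors they were 0.0442 for E2f5 in myotubes and, for responses, 0.048 for E2f2 and 0.0207 for Rbl2; with the DESeq2 Wald test 0.0453, 0.0477 and 0.0192. With only the groups compared, E2f3 was -0.0098 and E2f8 -0.0003 in overexpressor myoblasts and E2f5 0.0217 in overexpressor myotubes. With no filter the response of Rbl2 between clones was -0.0363. The cause was not tested.

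Leaving out 1 library at a time, values that turned ranged from -0.0371 to 0.0563 for E2f3 and -0.0159 to 0.0778 for E2f8 (overexpressor against control myoblasts), -0.0283 to 0.24 for E2f1 and -0.11 to 0.0128 for E2f5 (overexpressor against control myotubes), -0.0125 to 0.12 for E2f4 and -0.17 to 0.0076 for Rbl2 (knockout against overexpressor myotubes), and, for responses, -0.26 to 0.0103 for E2f1 and -0.14 to 0.0846 for E2f2 (overexpressor against control) and -0.0925 to 0.0869 for Rbl2 (between clones).

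Library totals shifted the median over all genes from 0.07 to -0.168 in control differentiation and from -0.075 to -0.243 in the knockout, from -0.037 to 0.108 between overexpressor and control myotubes, from -0.051 to 0.135 and from -0.061 to -0.173 in the responses of the overexpressor against the control and of the clones; DESeq2 size factors moved those of the 2 clones against control myotubes to 0.071 and 0.06, the knockout differentiation median to 0.037, and the responses against the control to 0.06 and 0.037. The share of calls that were higher went from 54.0% to 37.9% (control differentiation), 45.5% to 34.0% (knockout) and 45.8% to 57.8% (overexpressor myotubes) with library totals, and from 42.7% and 40.4% to 53.9% and 52.0% (responses of the overexpressor and the knockout against the control) with DESeq2 size factors, the first being 61.0% with library totals.

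The letters A, B and C are not stated to pair libraries, and in no comparison did all 3 same-letter correlations exceed 0.1 (range -0.358 to 0.264). With a replicate block E2f1 in overexpressor myoblasts (0.24, adjusted p = 0.0678), E2f4 in the overexpressor response (0.28, adjusted p = 0.056) and E2f6 between the clones' responses (-0.22, adjusted p = 0.0557) no longer passed, so that counts were 5, 3 and 4 in place of 6, 4 and 5; no other member call changed with the block. The depth did not limit any member, all of which had at least 148 counts in every library.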

Other observations

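For each member, the tested genes with the most similar pattern were found by the root mean square difference between log2 CPM values centred on each gene's mean, over the 18 libraries. For E2f7 they were Cdc6 (0.245), Mybl2 (0.257) and Mcm10 (0.266), which encode a helicase loader, a MuvB partner and a replication initiation factor. Its nearest member, Rbl1, was at 1.027. E2f1 was closest to Radil (0.144), E2f2 to Fam53b (0.144), E2f3 to Cstf2 (0.079), E2f4 to Rps6kb2 (0.086), E2f5 to Slc38a6 (0.138) and E2f6 to Cog6 (0.104). E2f8 was closest to Prep (0.082) and Rbl1 to Trim59 (0.228) and Blm (0.232), a DNA helicase. Rbl2 was closest to N4bp1 (0.118), Snrk (0.131) and Rspry1 (0.148). N4bp1 and Rspry1 lie on chromosome 8, as Rbl2 does, starting at 86808160 and 94601937 where Rbl2 starts at 91070057 (GRCm38). Of the 3 genes closest to E2f4, which is also on chromosome 8, Rps6kb2 lies on chromosome 19 and Dmwd and Wdr73 on chromosome 7. These distances are descriptions over the same 18 libraries, and carry no test.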
